A study of Mus musculus with 10 samples.

Results

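A set of 9 genes of retinoic acid signalling and retinoid metabolism were followed through the chemical conversion of mouse fibroblasts into XEN-like cells, cells that resemble extraembryonic endoderm. They were *Rara*, *Rarb*, *Rarg*, *Crabp1*, *Crabp2*, *Stra6*, *Dhrs3*, *Cyp26a1* and *Cyp26b1*, chosen by name, and all 9 were found among the 23197 genes of the count table. Mouse embryonic fibroblasts (MEFs) from mid-gestation ICR embryos, without head, limbs and viscera, were exposed to the C6FAE cocktail. It holds CHIR99021 (an inhibitor of GSK3), RepSox (an inhibitor of the TGF-beta receptor ALK5), Forskolin (which raises cAMP), AM580 (an agonist of the retinoic acid receptors) and EPZ004777 (an inhibitor of Dot1L). The d0 cells were untreated MEFs, and every later group had been through the cocktail, AM580 included, so the share of each compound in a difference cannot be told apart. By the methods, the cocktail was given in another medium than that of MEFs, with serum replacement and bFGF added. Medium and time in culture therefore cannot be told apart from the compounds either. The labels and the methods differ on how long the medium was renewed, so whether d20 cells were still in the cocktail is not clear. Valproic acid is also named in the methods' recipe for the medium, while the labels and the course are named C6FAE. Single cells were picked by hand and are named by day, as d0, d1, d2, d3, d4, d5, d6p, d8, d12 and d20. The meaning of the p in d6p is not stated, and d8c and d12c cells were picked from colonies.

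Retinol enters cells through receptors such as Stra6 and is oxidised to retinal and then to retinoic acid, while Dhrs3 reduces retinal back to retinol. Retinoic acid binds the receptors RARα, RARβ and RARγ, which sit on DNA with RXR partners and turn on target genes, and Crabp1 and Crabp2 carry it inside the cell. Cyp26 enzymes oxidise it for removal, and several of these genes are themselves well known targets of the receptors, so that the pathway limits its own signal.

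The table held 808 cells, of which 670 had at least 4000 detected genes and were used. The filter fell unevenly, since 38 of 72 cells were kept at d20 and 51 of 96 in d12c. At d0 72 of 84 cells were kept, and at d12 67 of 72. Depth ran from 17633 to 6004864 unique molecular identifiers (UMIs, which count RNA molecules rather than reads) in the kept cells, with a median of 344196 at d0, 768565 at d12 and 195480 at d20. The labels list 10 batches, but the name of a cell carries no batch, so all cells were treated as 1 sample, with no replicates and no test between groups. A level is the mean over cells of CPM, a gene's UMIs scaled to the cell's library size, and a log2 difference compares (mean CPM + 1) between groups. A gene was compared where its mean reached 5 CPM in either group, and a difference of 2-fold or more (1 on the log2 scale) is called higher or lower. Intervals are 95% exact Poisson intervals for summed UMIs and Clopper-Pearson intervals for shares of cells, and cover counting error only. The summed mean level of 8 fibroblast markers was 3136 CPM at d0, 9556 at d12 and 291 at d20, and that of 10 XEN markers was 67.6, 170 and 1517. The 51 d12c cells fell apart by number, with a fibroblast marker sum of 4303 CPM in the 21 cells numbered 1 to 24 and 222 CPM in the 30 cells numbered 49 to 96, so these ranges are given separately where it matters.

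The promoters of *Cyp26a1* and *Rarb* are shown because the retinoic acid response elements known from these genes lie in them. Promoters of 8 of the 9 genes, all but *Crabp2*, were matched in RefSeq (GRCm38.p6), from 250 bases before the start site to 50 bases after it. They were searched on both strands for direct repeats, with 5 bases between them, of the half-site AGGTCA and of its forms whose first 3 bases are GGG, AGT or GGT, the spacing typical of such elements. Among the 8 genes only *Cyp26a1* and *Rarb* held one, against 31 of the 27025 genes in the table (0.115%). The elements of both genes were known beforehand, so this count is not a test of enrichment. With 1 or 2 bases between the half-sites none of the 8 had a match, against 0.263% and 0.311% of all genes. Neither *Crabp2* nor sequence further from the start sites was searched. A match is a description of letters and not proof of binding. Both sequences run 5′ to 3′ over the 250 bases before the start site, with the match in capitals. *Cyp26a1* lies on the plus strand at chr19:37697558-37697807, and its match, 32 to 16 bases before the start, reads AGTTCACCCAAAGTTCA on the opposite strand. *Rarb* lies on the minus strand at chr14:16575477-16575726, with its match 53 to 37 bases before the start.
Cyp26a1: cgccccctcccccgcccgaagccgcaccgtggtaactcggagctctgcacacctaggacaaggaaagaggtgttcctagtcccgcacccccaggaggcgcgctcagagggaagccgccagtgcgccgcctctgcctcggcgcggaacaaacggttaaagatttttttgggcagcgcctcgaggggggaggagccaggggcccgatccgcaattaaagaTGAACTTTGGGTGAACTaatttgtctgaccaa
Rarb: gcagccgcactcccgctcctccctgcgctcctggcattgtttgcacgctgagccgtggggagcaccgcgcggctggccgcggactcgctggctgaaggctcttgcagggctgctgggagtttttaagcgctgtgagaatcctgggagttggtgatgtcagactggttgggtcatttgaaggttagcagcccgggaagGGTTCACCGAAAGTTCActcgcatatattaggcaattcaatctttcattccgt

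Most of the members were higher after the first day. From d0 to d1, 6 of the 8 members compared were higher by 2-fold or more and 0 were lower, where 9.75% of all 9514 genes compared were higher and 11.7% lower. The median log2 difference of the members was 1.94 and that of all genes 0.02. *Cyp26b1* differed most, by 3.22 on the log2 scale, followed by *Stra6* (2.55), *Crabp2* (2.40), *Dhrs3* (2.27), *Crabp1* (1.62) and *Rarg* (1.18). *Rarb* (0.86) and *Rara* (-0.79) stayed within 2-fold, and *Cyp26a1* did not reach 5 CPM. The direction held on the following days. Against the same d0 cells, 7 of 9 members were higher at d2, where 10.4% of all genes were higher and 8.88% lower. The count was 7 of 8 at d3 (15.7% of all genes higher, 11.3% lower) and 8 of 9 at d4 (15.5% and 10.7%). It was then 7 of 8 at d5 (20.4% and 10.2%), 7 of 9 at d6p (20.2% and 15.5%), 6 of 8 at d8 (18.6% and 14.9%) and 7 of 8 at d8c (19.9% and 16.9%). In none of these groups was a member called lower than d0. In d12c, 6 of 9 were higher (18.8% of all genes) and *Rarg* was lower (15.6%). That group pools unlike cells, and in its cells numbered 49 to 96 *Crabp1* (40.9 CPM) and *Rarb* (4.48 CPM) were below their d0 means of 666 and 11.4 CPM. Between d1 and d2, *Rarb* (1.15) and *Stra6* (1.12) were higher among 8 members and 0 were lower, with 6.65% and 3.29% of all genes. The comparisons with d0 share its cells.

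**Figure D1:**
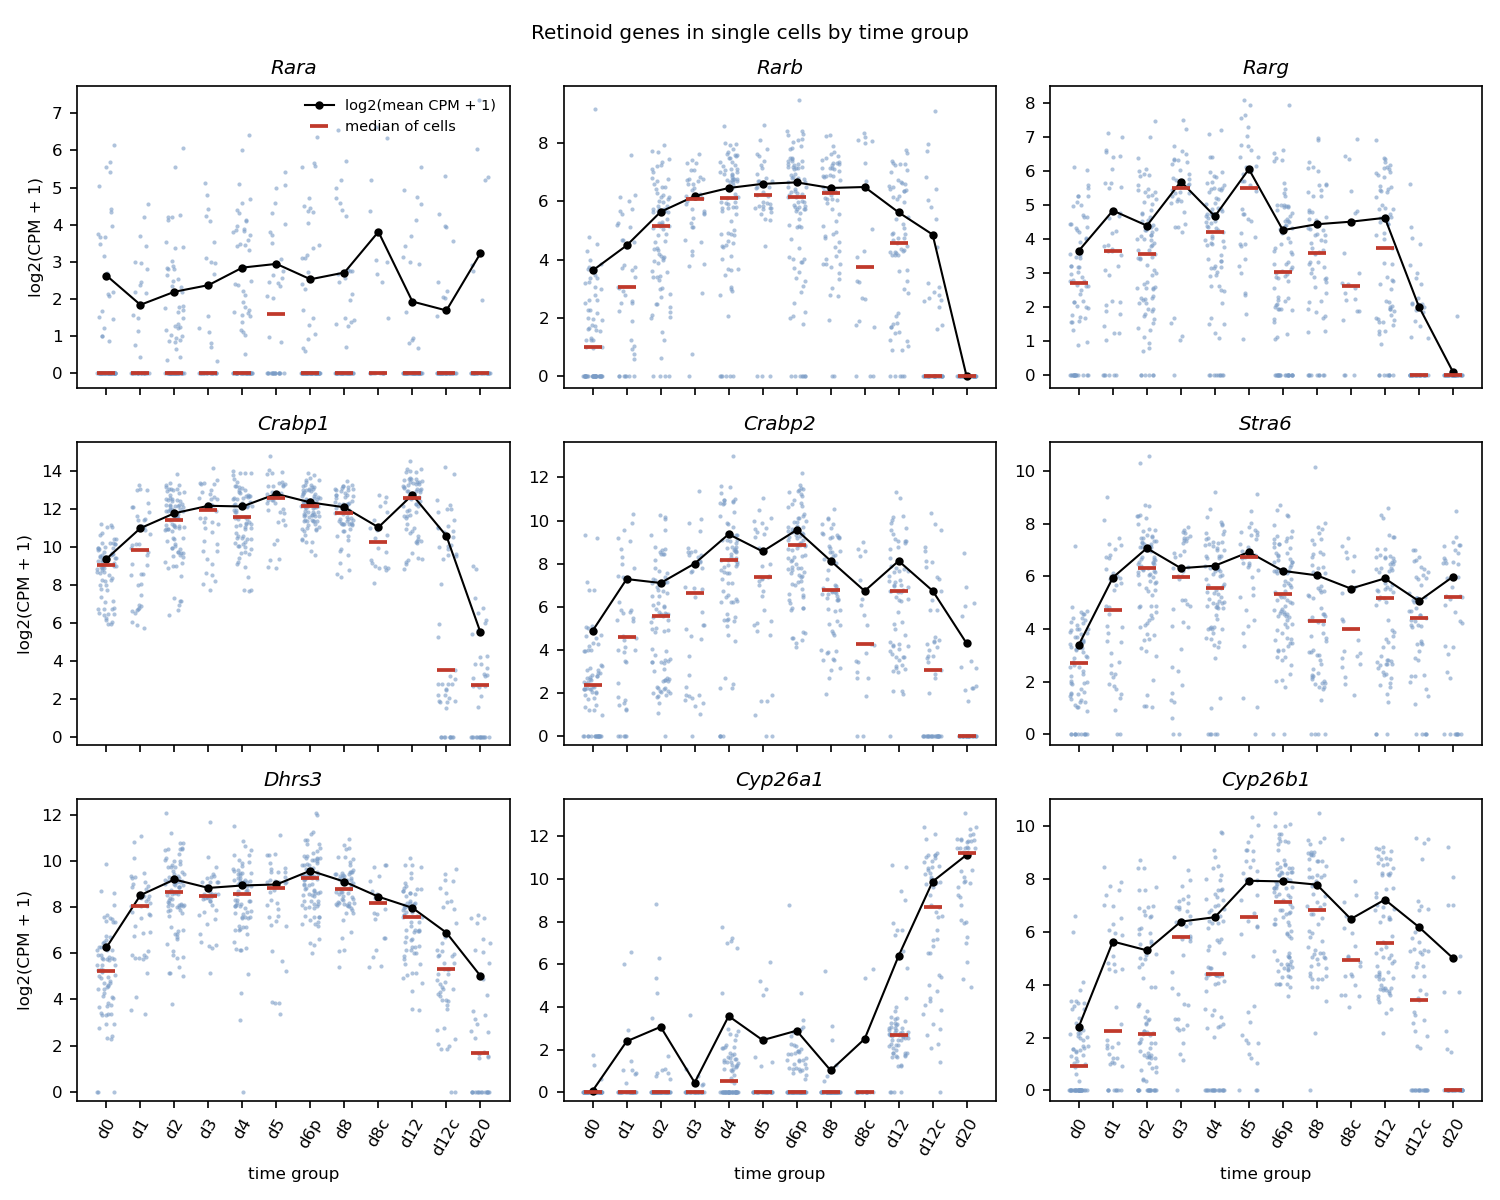
Levels of the 9 genes in single cells (blue points, log2(CPM + 1)) in each time group, with the group mean as black points joined by a line and the median cell as a red bar. Most genes rose after d0 and fell towards d20, while *Cyp26a1* stayed near 0 in most cells until d8c and reached a mean of 2246 CPM at d20.

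The receptors took different courses. *Rara*, which encodes RARα, the receptor that AM580 prefers (chr11:98789132-98836256, plus strand, NCBIM37, the mm9 build), was a gene of low counts throughout. Its mean was 5.20 CPM at d0, 2.59 at d1, 3.58 at d2, 4.18 at d3, 6.19 at d4, 6.70 at d5, 4.78 at d6p, 5.55 at d8, 13.0 at d8c, 2.81 at d12, 2.23 at d12c and 8.36 at d20. The median cell was at 0 in every group but d5, so means were set by few cells. At d20, 7 of 38 cells (18.4%, 7.74 to 34.3%) held a UMI, and leaving out the highest of them lowered the mean to 4.16 CPM. Its middle 50% of cells overlapped between all neighbours in the order of levels, and no ordering is drawn for it.

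*Rarb* encodes RARβ, a receptor whose own gene is a classical target of retinoic acid (chr14:17263356-17651381, minus strand, NCBIM37). Its mean went from 11.4 CPM at d0 to 21.5 at d1, 48.9 at d2, 71.5 at d3, 86.9 at d4, 96.02 at d5, 99.5 at d6p, 87.0 at d8 and 89.0 at d8c, and then came down to 48.3 at d12, 28.1 at d12c and 0 at d20. The d0 mean rested on 1 cell at 578 CPM, without which it was 3.41 CPM. With the highest cell of both groups left out, the difference of d1 from d0 was 2.04 rather than 0.86 on the log2 scale. The d8c mean stood on fewer cells, with a median cell at 12.4 CPM against 76.5 CPM at d8. At d8c 8 of 20 cells were at 20 CPM or more, against 47 of 62 at d8. The share of cells with a UMI also rose early and was gone at d20. It was 52.8% (40.7 to 64.7%) at d0, 97.4% (86.2 to 99.9%) at d3, 96.8% (88.8 to 99.6%) at d8, 92.5% (83.4 to 97.5%) at d12 and 0% at d20. After thinning every cell to 50000 UMIs the shares at d0, d8, d8c, d12 and d20 were 15.5%, 81.4%, 45%, 63.6% and 0%. No UMI of *Rarb* was found in 38 d20 cells, which allows a share of cells with a UMI of up to 7.89% by the floor of 3 counts and up to 9.25% by the Clopper-Pearson bound. This limits cells with a UMI at this depth and not cells expressing the gene. Against a floor of 3 UMIs over the group, its summed level at d20 was at least 143-fold lower than at d12 and at least 15.2-fold lower than at d0.

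*Rarg* encodes RARγ, the remaining receptor of the family (chr15:102065369-102087948, minus strand, NCBIM37). It was at 11.5 CPM at d0, 27.4 at d1, 19.9 at d2, 50.4 at d3, 24.3 at d4, 65.1 at d5, 18.1 at d6p, 20.5 at d8, 21.6 at d8c, 23.5 at d12, 3.01 at d12c and 0.06 at d20. The means at d3 and d5 stood above those of the neighbouring days, but the middle 50% of cells overlapped between all neighbours in the order of levels. At d20 a single UMI was left over 38 cells. The ratio of summed levels was 248 for d12 over d20, with a counting interval from 44.4 to 9788. A UMI was found in 88.1% (77.8 to 94.7%) of d12 cells and 2.63% (0.07 to 13.8%) of d20 cells.

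Both carriers of retinoic acid rose early and were lower at d20 than at d12. *Crabp1*, cellular retinoic acid binding protein 1 (chr9:54612555-54620917, plus strand, NCBIM37), was detected in every kept cell from d0 to d12. Its mean was 666 CPM at d0, 2045 at d1, 3526 at d2, 4626 at d3, 4516 at d4, 7152 at d5, 5231 at d6p, 4379 at d8, 2111 at d8c, 6900.2 at d12, 1539 at d12c and 44.8 at d20. Cells at d0 spread from 59.8 to 2343 CPM and those at d12 from 464 to 23747 CPM. At d20 the range was 0 to 516 CPM, so that d12 and d20 overlapped only between 464 and 516 CPM. A UMI was left in 24 of 38 d20 cells (63.2%, 46.0 to 78.2%), and in 38.9% after thinning. In the order of the 12 levels, d0 and d20 were the only neighbours whose middle 50% of cells did not overlap, at 246 to 920 CPM and 0 to 17.8 CPM.

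*Crabp2* encodes the carrier that delivers retinoic acid to its receptors in the nucleus (chr3:87752588-87757298, plus strand, NCBIM37). Its mean was 28.6 CPM at d0, 155 at d1, 136 at d2, 256 at d3, 658 at d4, 378 at d5, 754 at d6p, 279 at d8, 105 at d8c, 278 at d12, 106 at d12c and 18.7 at d20. Values within a group were widely spread. At d6p, where every cell had a UMI, the cells ran from 16.4 to 4667 CPM, and at d12 from 0 to 2559 CPM with a median of 106 CPM. At d20 the median cell was at 0 and 34.2% (19.6 to 51.4%) of cells had a UMI. The d20 mean was 0.59 below d0 on the log2 scale, a difference that was not called, but it came to -1.02 without the highest cell of each group, -1.17 with log2(CPM + 1) averaged over cells and -2.21 with cells numbered 1 to 48 only.

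*Stra6*, the membrane receptor that takes up retinol from its carrier protein (chr9:57911595-58001803, plus strand, NCBIM37), rose on the first day and was at a like mean level at d12 and d20. Its mean was 9.59 CPM at d0, 61.2 at d1, 134 at d2, 78.6 at d3, 83.9 at d4, 121 at d5, 73.1 at d6p, 64.9 at d8, 45.5 at d8c, 59.8 at d12, 32.4 at d12c and 62.4 at d20. Its level at d20 and d12 differed by 0.06 on the log2 scale, with a counting interval of -0.09 to 0.24 for the summed levels. After thinning, a UMI was found in 38.0% (26.8 to 50.3%) of d0 cells, 62.1% (49.3 to 73.8%) of d12 cells and 61.1% (43.5 to 76.9%) of d20 cells.

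*Dhrs3* encodes a retinal reductase that lowers the supply of retinoic acid and is induced by it (chr4:144482730-144518112, plus strand, NCBIM37). Its mean was 74.99 CPM at d0, 364 at d1, 583 at d2, 453 at d3, 487 at d4, 502 at d5, 760.5 at d6p, 547 at d8, 348 at d8c, 249 at d12, 117 at d12c and 31.4 at d20. The highest level was thus reached at d6p and the decline began before d12, which was 1.13 below d8 on the log2 scale. At d12 all 67 cells had a UMI, against 23 of 38 (60.5%, 43.4 to 76.0%) at d20.

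**Figure D2:**
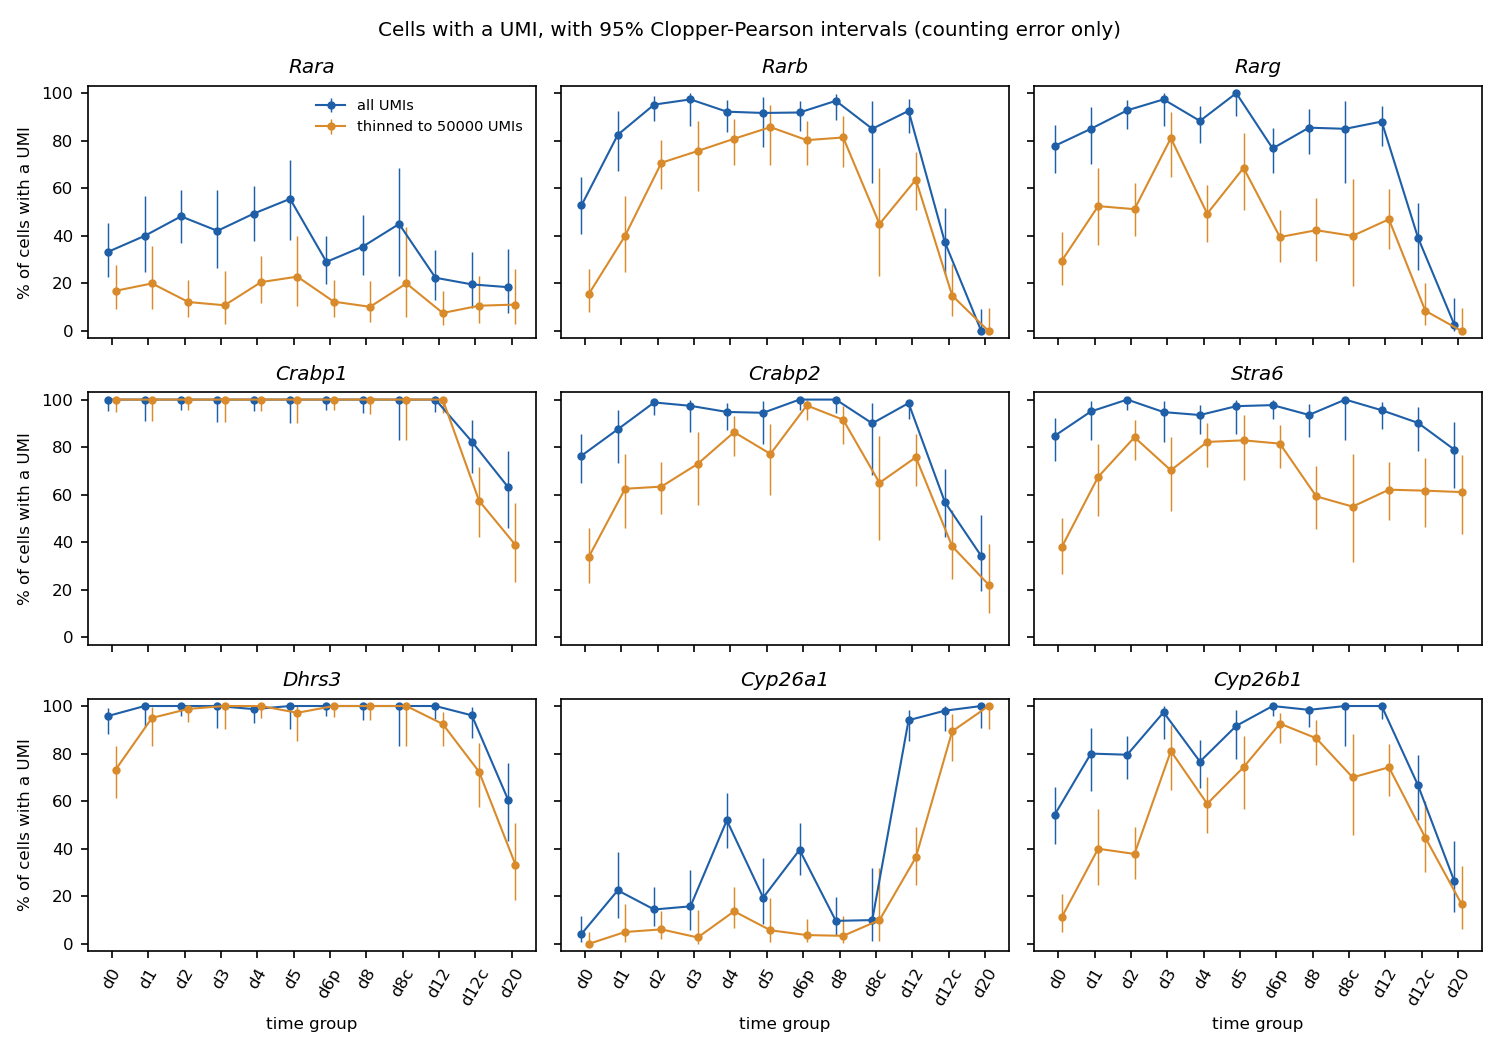
Share of cells with at least 1 UMI of each gene by time group, with all UMIs (blue) and after thinning each cell to 50000 UMIs (orange); bars are 95% Clopper-Pearson intervals for counting error. Under both counts *Rarb* went to 0% at d20, *Cyp26a1* reached 100% there, and *Stra6* was at 62.1% at d12 and 61.1% at d20 after thinning.

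The genes for the degrading enzymes went opposite ways at the end of the course. *Cyp26b1* (chr6:84521938-84543740, minus strand, NCBIM37) behaved like most of the other members. Its mean was 4.33 CPM at d0, 48.5 at d1, 38.3 at d2, 82.4 at d3, 92.8 at d4, 242 at d5, 238 at d6p, 219 at d8, 88.4 at d8c, 147 at d12, 71.5 at d12c and 31.1 at d20. The rise came in both the level and the share of cells. After thinning, 11.3% of d0 cells, 40.0% of d1 cells and 92.6% of d6p cells had a UMI, and 16.7% at d20. The d20 mean was carried by few cells, since 10 of 38 held a UMI, 5 were at 20 CPM or more and the median cell was at 0.

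*Cyp26a1* (chr19:37772298-37776018, plus strand, NCBIM37) was nearly silent in MEFs and became the member with the largest difference of all. Its mean was 0.06 CPM at d0 (3 UMIs in 72 cells), 4.27 at d1, 7.43 at d2, 0.38 at d3, 10.9 at d4, 4.47 at d5, 6.44 at d6p, 1.05 at d8, 4.69 at d8c, 83.6 at d12, 942 at d12c and 2246 at d20. From d1 to d8c the means stood on few cells. At d2, for example, 4 of 83 cells were at 20 CPM or more and held 97.1% of the summed CPM, with 1 cell at 456 CPM. With 3 UMIs at d0, ratios to it have wide counting intervals, from 9.45 to 141 around 28.6 for d1 and from 358 to 5081 around 1047 for d12. At d20 every cell carried it, from 29.5 to 8780 CPM with a median of 2420 CPM, so that no d20 cell overlapped with the d0 cells, whose highest was 2.40 CPM. The ratio of d20 to d0 was 23127 (7912 to 112159). The middle 50% of cells ran from 586 to 3541 CPM at d20, from 29.4 to 1491 CPM at d12c and from 3.07 to 8.91 CPM at d12. In the order of levels d20 overlapped with d12c, whereas d12c as a whole did not overlap with d12, nor d12 with d4, the next below. The d12c cells numbered 1 to 24 did overlap with d12, with a middle 50% from 6.98 to 138 CPM. Those numbered 49 to 96 ran from 417 to 1975 CPM.

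At d12 *Cyp26a1* had a split distribution. Of 67 cells, 63 held a UMI, but the median was 5.55 CPM against a mean of 83.6 CPM. The 11 cells at 20 CPM or more ran from 20.3 to 1606 CPM and held 94.9% of the summed CPM. Low levels in the remaining cells were also seen for other genes of the XEN-like state. Across the 11 genes with a mean of at least 200 CPM at d20 and under 20 CPM in all groups up to d8c, the median level in the 56 d12 cells with *Sox17* under 20 CPM was 0 to 3.04% of the d20 mean. For *Cyp26a1* it was 5.32 CPM, or 0.237% of d20, which ranked 9 of 11.

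**Figure D3:**
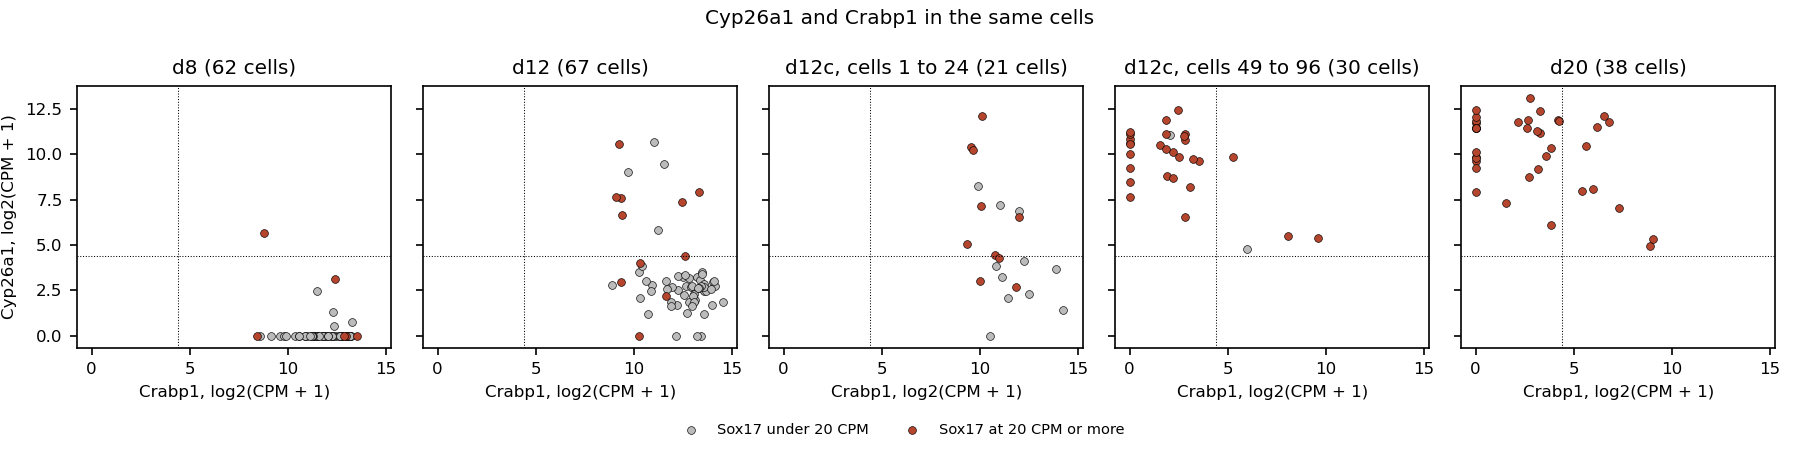
*Cyp26a1* against *Crabp1* (both log2(CPM + 1)) in the single cells of d8, d12, both number ranges of d12c and d20; each point is a cell, red where *Sox17* was at 20 CPM or more, and dotted lines mark 20 CPM. At d12 and in d12c cells 1 to 24 every cell was at 20 CPM or more for *Crabp1*, with or without *Cyp26a1*. By contrast, 26 of the 30 d12c cells numbered 49 to 96 and 29 of the 38 d20 cells were under 20 CPM for *Crabp1*.

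Cells high for *Cyp26a1* were compared with those high for *Sox17*, a transcription factor of endoderm that marks XEN cells. In the 319 cells from d3 to d8c, 15 were at 20 CPM or more for *Cyp26a1* and 22 for *Sox17*, with 4 cells in common. At d12, 7 of 67 cells held both, 4 only *Cyp26a1* and 4 only *Sox17*. In d12c cells numbered 1 to 24 these counts were 7, 3 and 3 of 21, and in those numbered 49 to 96 they were 28, 2 and 0 of 30. All 38 d20 cells held both.

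The *Cyp26a1* cells of d12 still held *Crabp1*, as did every cell of that group. All 11 cells with *Cyp26a1* at 20 CPM or more, and all 67 d12 cells, had *Crabp1* at 20 CPM or more. *Rarb* was at that level in 4 of the 11, against 35 of all 67. In d12c cells 1 to 24, all 21 cells had *Crabp1*, the 10 *Cyp26a1* cells among them. *Rarb* was found in 4 of these 10, against 7 of all 21. In d12c cells 49 to 96, 4 of 30 had *Crabp1* and 2 had *Rarb*, and at d20 it was 9 and 0 of 38. Spearman's rho of *Cyp26a1* and *Crabp1* over cells was -0.29 over 67 d12 cells, -0.53 over 21 d12c cells 1 to 24, -0.41 over 30 d12c cells 49 to 96 and -0.19 over 38 d20 cells. Cells of a group share their sample and differ in depth, and rho of depth with *Crabp1* ran from -0.02 to 0.42 in these groups. That of depth with *Cyp26a1* ran from -0.02 to 0.08 at d12 and in both number ranges of d12c but was -0.50 at d20, where *Crabp1* had 0.42, and the part of depth in the d20 value was not tested.

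By d12 the members were still mostly above MEFs. From d0 to d12, 7 of 9 were higher and 0 lower, against 19.3% of 9942 genes higher and 19.3% lower, with a median log2 difference of 2.52 for the members and -0.14 for all genes. *Cyp26a1* differed by 6.32, *Cyp26b1* by 4.80, *Crabp1* by 3.37, *Crabp2* by 3.24, *Stra6* by 2.52, *Rarb* by 1.99 and *Dhrs3* by 1.72, whereas *Rarg* (0.97) and *Rara* (-0.70) were not called. Between d8 and d12, 1 member was higher (*Cyp26a1*, 5.37) and 1 lower (*Dhrs3*, -1.13), where 14.6% and 17.5% of all genes were.

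From d12 to d20 the direction turned. Of the 9 members, 6 were lower and 2 higher, while 22.9% of 10441 genes were lower and 30.8% higher, and the median was -2.94 against 0.32 over all genes. *Crabp1* differed by -7.23, *Rarb* by -5.62, *Rarg* by -4.53, *Crabp2* by -3.83, *Dhrs3* by -2.94 and *Cyp26b1* by -2.21. *Cyp26a1* was higher by 4.73 and ranked 32 of 10441 genes. The other member called higher, *Rara* at 1.30, rested on its highest cells, and it came to 0.70 without the highest cell of each group. The value of *Rarb* depends on the pseudocount, and the median is the same with its bound in place of it. Scaling the group sums by edgeR's TMM moved the median of all genes by -0.48 in this comparison, and 39.8% rather than 57.3% of its called genes were then higher. The same 6 members were lower under TMM and DESeq2 scaling. The fibroblast markers fell with these members, as given above, and their part in the difference was not tested.

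Set against MEFs, the d20 cells had members on either side. From d0 to d20, 3 of 9 were higher, *Cyp26a1* by 11.05, *Cyp26b1* by 2.59 and *Stra6* by 2.58, and 4 were lower, *Crabp1* by -3.86, *Rarb* by -3.63, *Rarg* by -3.56 and *Dhrs3* by -1.23. Among all 10157 genes 23.2% were higher and 19.1% lower, and the medians were -0.59 for the members and 0.19 for all genes. *Cyp26a1* ranked 2 of 10157 genes. With TMM scaling 42.2% rather than 54.8% of the called genes were higher, and with spike-ins counted in the library size 43.2% were. The *Rarb* value is set by the pseudocount, since d20 was at 0, and by the 1 high d0 cell, and it was -2.14 without the highest cell of each group and -1.10 with a pseudocount of 10 CPM. The *Cyp26b1* value stands on the few cells named above, and it was 0.06 when log2(CPM + 1) was averaged over cells.

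**Figure D4:**
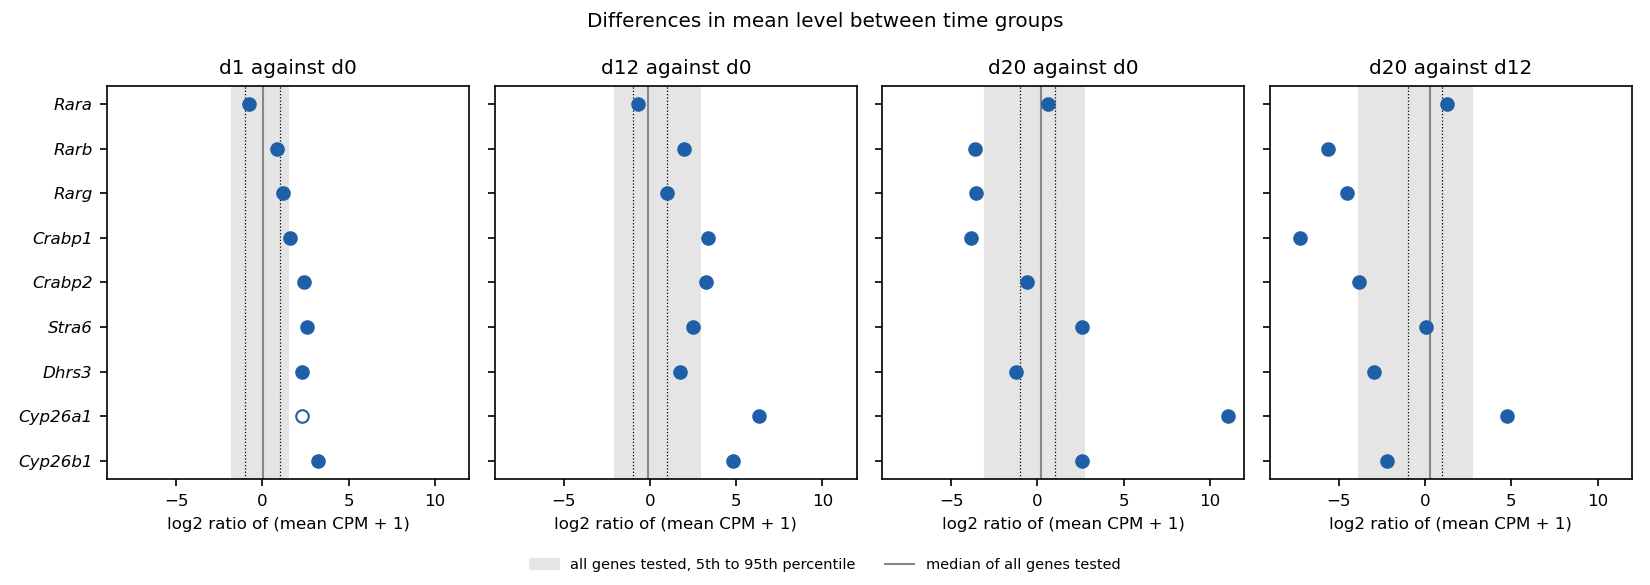
Log2 ratios of (mean CPM + 1) of the 9 genes in 4 comparisons; filled points are genes that reached 5 CPM in either group, the grey band is the 5th to 95th percentile of all genes compared, the grey line their median, and dotted lines mark 2-fold. *Cyp26a1* lay to the right of the band in each of the 3 comparisons where it was filled, and 3 members lay to the left of it from d12 to d20.

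The colony cells of day 12 showed the late pattern in 1 number range. In d12c cells 49 to 96 against d12, 6 of 8 members were lower and 1 higher, with 25% and 23.8% of all genes. *Crabp1* was at 40.9 CPM there, *Rarb* at 4.48, *Rarg* at 0.55 and *Cyp26a1* at 1338. In d12c cells 1 to 24 only *Cyp26a1* was higher (2.16) and only *Rarg* lower (-1.70), with 11.1% and 11.7% of all genes. There *Crabp1* was at 3680 CPM, *Rarb* at 61.8 and *Cyp26a1* at 377, although the last fell to 175 CPM without its highest cell. From d12c cells 49 to 96 to d20, 2 of 7 members were lower, *Crabp2* (-1.69) and *Dhrs3* (-1.07), with 11% of all genes, and *Rara* was higher (1.59), with 18% of all genes.

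Members with like courses over the groups did not always vary together from cell to cell. Over the 12 group means, Pearson's r of log2(mean CPM + 1) was 0.95 for *Crabp1* and *Rarb*, 0.90 for *Dhrs3* and *Rarb* and -0.80 for *Cyp26a1* and *Rarg*. Within the 6 groups from d2 to d8, Spearman's rho of *Rarb* and *Crabp1* over cells ran from -0.24 to 0.22, with a median of -0.09. The pair of *Cyp26b1* and *Crabp1* ran from 0.35 to 0.53 with a median of 0.42, the highest median of the pairs measured in all 6 groups. At d4, with rho at 0.52, both genes also went with depth (0.35 and 0.49) and with the running number, at 152 and 29.1 CPM for *Cyp26b1* and 6479 and 2393 CPM for *Crabp1* in cells numbered 1 to 48 and above. The part of either in this rho was not tested. Among 8123 genes with a mean of at least 20 CPM in any group, the courses most like *Rarb* were those of *Penk* (r = 0.98), *Dclk1* (0.97) and *Fam174b* (0.97), and those most like *Crabp1* were *Gng8* (0.99), *Twist1* (0.98) and *Pam* (0.98). For *Cyp26a1* they were *Tlx2* (0.96), *Podxl* (0.96) and *Tmprss2* (0.96), and for *Stra6* they were *Lef1* (0.94), *Robo1* (0.86) and *Zmym2* (0.84). *Rarg* was nearest to *Arhgef40* (0.97), *Syne1* (0.96) and *Thap2* (0.95). *Cyp26b1* was nearest to *Bace2* (0.92), *Fjx1* (0.91) and *Trrap* (0.91), and *Crabp2* to *Tbc1d9b* (0.93), *Zfp52* (0.93) and *Adra2a* (0.93). These are descriptions over 12 groups of 1 sample.

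The other genes of the pathway were followed as a list of 47. From d0 to d1, 3 of 28 compared were higher and 3 lower, with a median of -0.34, and these shares are near those of all genes (9.75% and 11.7%). From d0 to d12, 14 of 33 were higher and 4 lower (19.3% and 19.3% of all genes), with a median of 0.65. From d12 to d20, 4 of 32 were higher and 13 lower (30.8% and 22.9% of all genes), with a median of -0.39. From d0 to d20 it was 9 and 5 of 29 (23.2% and 19.1% of all genes), with a median of 0.19, the same as over all genes. Of 9 genes for enzymes that make retinoic acid compared between d0 and d12, 6 were higher and 2 lower, where 19.3% of all genes were higher and 19.3% lower. Between d12 and d20, 1 of 9 was higher and 5 were lower, with 30.8% and 22.9% of all genes.

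The retinaldehyde dehydrogenase genes *Aldh1a1* and *Aldh1a2*, which make retinoic acid from retinal, were at 0.61 and 1.88 CPM at d0 and 60.2 and 32.1 CPM at d12. Neither had a UMI in the 38 d20 cells. *Aldh1a2* was highest at d5, at 87.8 CPM, and *Aldh1a3* stood at 5.23 CPM at d0, 27.4 at d12 and 3.16 at d20. *Rdh10*, which oxidises retinol to retinal, was at 3.48, 38.1 and 7.76 CPM at d0, d12 and d20. *Adh1*, an alcohol dehydrogenase that can oxidise retinol, differed from these in being high at d20, at 320 CPM, against 18.3 CPM at d0, 475.0 at d8 and 84.6 at d12. Of 6 storage and transport genes compared between d0 and d12, 3 were higher and 0 lower (19.3% and 19.3% of all genes). *Rbp4*, which encodes the retinol carrier of blood that Stra6 binds, went from 20.1 to 547 CPM and was at 101 CPM at d20, and *Lrat*, which esterifies retinol, went from 0.15 to 24.6 and then 1.21 CPM.

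Among 11 known targets of retinoic acid, 6 reached 5 CPM in d0 or d12, of which 4 were higher and 1 lower (19.3% and 19.3% of all genes). *Rarres1* was at 7.32 CPM at d0, 104 at d8, 79.1 at d12 and 6.74 at d20, and *Tgm2* at 0.44, 10.7, 29.8 and 0.39 CPM. *Zfp703* was at 4.07, 7.07, 45.1 and 30.7 CPM at the same days and so stayed above d0 at d20. *Meis1* was lower at d12 (13.9 CPM) and d20 (7.68 CPM) than at d0 (38.6 CPM). The third enzyme of the family, *Cyp26c1*, did not exceed 3.003 CPM in any group. The RXR partners *Rxra* and *Rxrb* were at 6.62 and 10.3 CPM at d0, 3.77 and 6.08 CPM at d12 and 5.22 and 10.6 CPM at d20, and neither was called in the 4 comparisons. The partner *Rxrg* was lower at d1 (-3.07 on the log2 scale) and at d20 (-3.15) than at d0, where its 7.90 CPM came from 5 of 72 cells, and it was at 8.04 CPM at d8, 4.86 at d12 and 0 at d20.

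**Figure D5:**
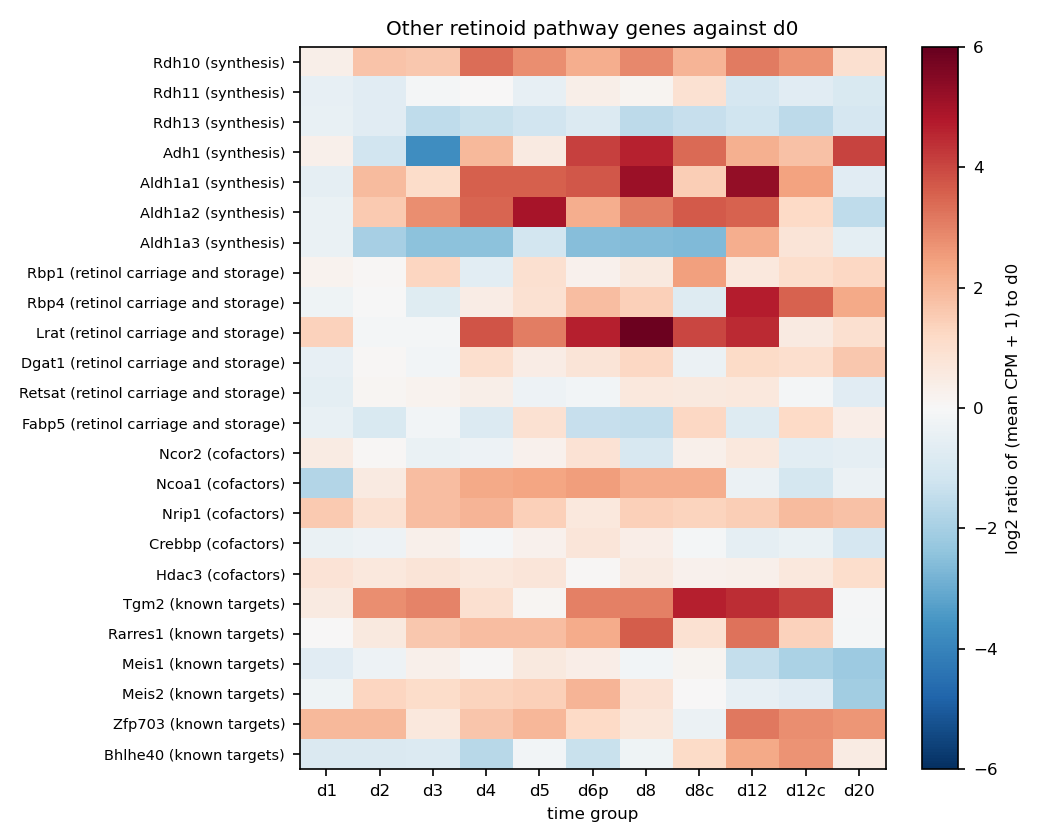
Log2 ratio of (mean CPM + 1) to d0 for the 24 other pathway genes that reached 20 CPM in a group and differed by 2-fold in at least 1 of the 4 comparisons; red is higher than d0 and blue lower, with the scale ending at 6 in size. The *Aldh1a1*, *Aldh1a2*, *Lrat* and *Rarres1* rows are red from d4 to d12 and pale or blue at d20, while *Adh1* and *Zfp703* are red at d20.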

How the data were processed

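Hand-picked cells were sequenced by the authors, who assigned reads to cells by barcode, trimmed and aligned them against the mm9 transcriptome, and collapsed duplicates by UMI. The aligner and the gene annotation are not given in the sources used here. The deposited values are whole-number counts of UMIs per gene and cell, without scaling. Entries under repeated date-like names (4 in all) were left out, and 92 ERCC spike-ins, 5.43% of the counts of kept cells, were left out of library sizes. A cell was kept from 4000 detected genes upwards.

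The 9 genes, the pathway and marker lists and the comparisons were chosen with earlier results of these data known. CPM, means over cells, log2 ratios with a pseudocount of 1 CPM, exact intervals and thinning to 50000 UMIs used Python 3.11.15 (scipy 1.17.1, pandas 2.3.3, numpy 2.4.6). Group sums were also scaled with edgeR 4.0.16 (TMM) and DESeq2 1.42.0 (size factors). No test was made, since cells are not replicates and no cell could be assigned to any of the 10 labelled batches. The computation was tested on simulated data. Pathway genes are given by value where a mean reached 20 CPM and at least 1 of the 4 comparisons differed by 2-fold, or beside a member of the same role, and likeness of courses is given by the 3 genes with the highest Pearson's r, which for *Dhrs3* are not reported here. Positions are from GENCODE on NCBIM37, and promoters from RefSeq on GRCm38.p6. Alternatives covered scaling, averaging, pseudocount, minimum level, the filter on cells, spike-ins, the highest cell and cell numbers.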

Additional observations from a re-analysis of the deposited data

How the results depend on the processing

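No paired analysis was possible because the names of the cells carry neither batch nor replicate. Under 12 alternatives, the 28 differences called in the 4 comparisons gave 336 values, all of the same direction, of which 321 still reached 2-fold. Leaving out the minimum mean keeps these differences as they are, and a pseudocount of 10 CPM cannot change a direction. The values of these 2 alternatives are therefore no check of direction. The count of members higher from d12 to d20 went from 2 to 1 under TMM, DESeq2 size factors, the mean of log2(CPM + 1), a pseudocount of 10 CPM, all deposited cells, at least 2000 genes per cell, without the highest cell of each gene, and with cells numbered 1 to 48 only, since *Rara* no longer reached 2-fold (0.14 to 0.86). The count of members lower from d0 to d1 went from 0 to 1, again *Rara*, under TMM, all deposited cells and at least 2000 or 6000 genes per cell. The other differences that missed 2-fold under an alternative were *Rarg* from d0 to d1 in 3, *Dhrs3* from d0 to d20 in 2, and *Crabp1* from d0 to d1 and *Cyp26b1* from d0 to d20 under the mean of log2 values. Differences that reached 2-fold only under alternatives were *Rarb* from d0 to d1 in 6 (1.65 to 2.04), *Crabp2* from d0 to d20 in 3 (-1.02 to -2.21), *Rarg* from d0 to d12 in 3 (1.01 to 1.06) and the *Rara* difference above. Averaging log2 values also moved the share of called genes that were higher, from 45.4% to 81.8% for d0 to d1, from 54.8% to 38.4% for d0 to d20 and from 57.3% to 41.6% for d12 to d20. DESeq2 size factors gave 44.7% for d12 to d20. Of all genes compared between d0 and d1, 9.75% were higher and 11.7% lower, but 24.4% and 5.43% with the mean of log2 values and 3.41% and 4.78% with a pseudocount of 10 CPM. The alternative with cells numbered 1 to 48 only, the comparisons beyond the 4 named ones, the split of d12c by number, the 11 genes set beside *Cyp26a1* and the counts of cells holding a pair of genes were chosen after seeing the data. With 195480 UMIs in the median d20 cell, against 768565 at d12, genes near 5 CPM are close to 1 UMI per cell at d20, and a missing UMI there does not show absence.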

Other observations

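Cells of a group also differed by the running number in their names. Comparing cells numbered 1 to 48 with those above 48 in the 8 groups that hold both, 24 of 72 gene and group pairs differed by 2-fold or more on (mean CPM + 1). *Crabp1* at d12c stood at 3680 and 40.9 CPM, *Cyp26b1* at d4 at 152 and 29.1 CPM, *Crabp2* at d4 at 1053 and 232 CPM and *Crabp1* at d0 at 468 and 959 CPM. At d20 *Crabp2* was at 7.40 and 60.9 CPM while *Cyp26a1* was at 2287 and 2090 CPM, and *Rarb* was at 0 in both. At d12 *Rarb* was at 48.9 and 47.0 CPM and *Crabp1* at 7242 and 6200 CPM. What the running number stands for is not stated.

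Keratin and adhesion genes of epithelia, taken as a sum, were, like *Cyp26a1*, highest at d20. The summed mean of *Epcam*, *Krt8*, *Krt18* and *Cdh1* was 42.4 CPM at d0, 72.2 at d8 and 121 at d8c. It was 418 CPM at d12, 1747 in d12c cells and 2245 at d20. The sum does not hold for each gene, since *Cdh1* was called lower at d20 than in d12c cells 49 to 96, as were 11% of all genes. From d3 to d8c, only 1 of 319 cells held *Epcam* at 20 CPM or more, and it was not among the 15 cells with *Cyp26a1* at that level. With 1 such cell, this count cannot show whether early *Cyp26a1* cells differ in *Epcam*. At d20, 30 of 38 cells held *Epcam* at 20 CPM or more. *Cyp26a1* had a median of 2789 CPM in these 30 cells and 570 CPM in the other 8. Cells with *Epcam* also had the higher median at d12 (196 against 5.46 CPM) and in d12c cells 1 to 24 (693 against 16.1 CPM). These medians stand on few *Epcam* cells, 4 of 67 at d12 and 4 of 21 in d12c cells 1 to 24. In d12c cells 49 to 96 the median was 1062 CPM in 26 cells with *Epcam* and 1082 CPM in the other 4. Markers of muscle (*Myod1*, *Myog* and *Des*) summed to 122 CPM at d0, of which 1 cell had 7682 CPM. The leukocyte markers *Ptprc*, *Cd68* and *Csf1r* summed to 12.2 CPM at d0, 24.2 at d12, 25.4 in d12c cells and 9.81 at d20. Of these, *Ptprc* was at 0 in every group after d0, while *Csf1r* was called higher at d12 than at d0. The 4 endothelial markers summed to 6.33 CPM at d0 and 36.7 at d12. There *Pecam1* was at 0, and only *Kdr* among them was called higher than at d0.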
